A study of Mus musculus with 6 samples.

Results

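The aminoacyl-tRNA synthetase genes were followed in full-grown mouse oocytes, the large cells that store the mRNA of the future egg and early embryo, from wild-type (WT) and Pan2 knockout (KO) samples. Members were found by symbol, as a one-letter amino acid code followed by ars, with or without the suffix 1 or 2, together with Eprs, Farsa and Farsb. This rule gave 37 of the 55291 genes in the count table, 20 for cytosolic enzymes and 17, those with the suffix 2, for mitochondrial enzymes. PAN2 pairs with PAN3 and trims poly(A) tails, the first step in the decay of many mRNAs. The labels give the genotypes as WT and KO, and the series text names a maternal deletion of Pan2; nothing used here states the strain, the age, the promoter behind the deletion or how many oocytes made up a sample. Of 6 labelled samples, 3 WT and 3 KO, 5 have a count column, and 4 were used: WT 1 and KO 1, KO 2 and KO 3. The series text speaks of zygotes and 2-cells, whereas the sample titles and tissue labels name full-grown oocytes, which are followed here. WT 2 was set aside because its counts do not follow the gene models outside the start of chromosome 16, and WT 3 was not analysed here.

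Aminoacyl-tRNA synthetases join each amino acid to its tRNAs and so set which amino acid a codon is read as. Cytosolic and mitochondrial protein synthesis use separate enzymes for most amino acids, all encoded in the nucleus. Kars and Gars each encode both forms, Eprs charges both glutamate and proline, and no mitochondrial glutamine enzyme exists in mammals, where an amidotransferase completes that step. Several cytosolic enzymes sit together in the multi-synthetase complex on the scaffold proteins AIMP1, AIMP2 and AIMP3 (Eef1e1). Many cytosolic synthetase genes are targets of ATF4, the transcription factor made when amino acids run short, which binds the C/EBP-ATF response element. Growing oocytes store synthetase mRNAs along with the rest of the translation machinery.

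The 4 libraries held from 12038990 counts in KO 1 to 26770521 in KO 3, and WT 2 held 3785574. Pan2 was at 77.6 CPM (normalised counts per 1000000) in WT 1 and at 44.6, 11.9 and 34.0 CPM in KO 1, KO 2 and KO 3. Its log2 fold change was -1.37 (SE 0.53, adjusted p = 0.301, edgeR quasi-likelihood test), so its level was lower in every KO library without passing the threshold of 0.05. Pan3, the partner subunit, was at 240 CPM in WT 1 and at 195, 154 and 179 CPM in the KO libraries; values of the KO libraries are given in the order KO 1, KO 2, KO 3 throughout. Over 12 oocyte markers, which include Gdf9 and Zp3, the share of counts was 3.33% in WT 1 and from 2.95 to 3.45% in the KO libraries, but 2.64e-05% in WT 2, which was set aside. Over 14 granulosa and cumulus markers it was 0.00666% in WT 1 and from 0.00876 to 0.00988% in the KO libraries, and all 8 of these markers that could be tested had positive log2 fold changes. Over 9 markers of theca, stroma and endothelium it was 0.00185% in WT 1 and from 0.00309 to 0.00349% in the KO libraries. The part of those cells in any result was not tested. In bulk samples like these, fewer cells of a type and less RNA per cell cannot be told apart.

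Promoters are printed for the members that hold the ATF4-type element or the NRF1 motif. RefSeq start sites on GRCm38.p6, with 250 bases before and 50 bases after the start, were available for 27 members, 13 cytosolic and 14 mitochondrial. The C/EBP-ATF response element, searched as TGATGNAA on both strands, was present for 5 of the 13 cytosolic members and for 0 of the 14 mitochondrial ones, against 3.97% of 32851 mouse promoters. Here and for the NRF1 motif, members are counted by gene and the background by promoter. A match of each of these genes is printed with 14 bases on each side, on the strand of the gene, with the element in capitals.
Aars, chr8:111033837-111033872, plus strand: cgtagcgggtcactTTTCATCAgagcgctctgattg
Gars, chr6:55037957-55037992, plus strand: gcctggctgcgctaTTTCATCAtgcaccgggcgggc
Iars, chr13:49682123-49682158, plus strand: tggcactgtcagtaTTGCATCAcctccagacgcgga
Tars, chr15:11399652-11399687, minus strand: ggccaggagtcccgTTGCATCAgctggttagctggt
Yars, chr4:129189892-129189927, plus strand: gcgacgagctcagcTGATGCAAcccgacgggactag
In the matches printed, the element lay in the reverse orientation in all but Yars, at positions from -30 to 9 relative to the start. A further match in Aars, also in the reverse orientation and at -112, is not printed. A match is a description of the letters in these windows, not a site shown to be bound.

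The core of the NRF1 motif was searched for in the same windows, since NRF1 is a transcription factor known for nuclear genes of mitochondrial function. It was present for 2 of the 14 mitochondrial members, Iars2 and Mars2, and for 1 of the 13 cytosolic members, Tars, against 2.27% of all promoters. The core is in capitals in the matches that follow.
Iars2, chr1:185329370-185329407, minus strand: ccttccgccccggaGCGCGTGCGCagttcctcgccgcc
Mars2, chr1:55237165-55237202, plus strand: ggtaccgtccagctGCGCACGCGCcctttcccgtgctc
Tars, chr15:11399610-11399647, minus strand: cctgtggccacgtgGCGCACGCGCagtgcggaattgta
Tars was the gene with both motifs. The 5 genes with the C/EBP-ATF element did not share a level: Iars was among the most abundant synthetase mRNAs and Yars among the rarest, as given below.

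Some members have a start region next to that of another gene. Only protein-coding genes on opposite strands that run away from each other, with at most a short overlap at the starts, were counted as pairs. In 9 of the 37 members (24.3%), Hars and Hars2 counted as 1 each, the start lay within 1000 bases of the start of such a partner, against 1877 of 21851 protein-coding genes (8.59%). This held for 3 of the 20 cytosolic members and for 6 of the 17 mitochondrial ones. Hars and Hars2, the cytosolic and the mitochondrial histidine genes on chromosome 18, share one such start region, with 197 bases between their starts. Other pairs were Kars with Terf2ip, Yars with S100pbp, Ears2 with Ubfd1, Fars2 with Lyrm4, Rars2 with Orc3 and Sars2 with Mrps12, a gene of the mitochondrial ribosome.

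Levels between genes were compared on a scale per length, TPM, which takes the counts per kilobase of the deposited exon length and scales them to 1000000 in each library. The cytosolic genes had a median of 39.2 TPM, the mitochondrial genes a median of 3.84 TPM, and the 13625 protein-coding genes tested a median of 8.23 TPM. Of the cytosolic genes 18 of 20 lay above 10 TPM, and of the mitochondrial genes 4 of 17 did, namely Lars2, Rars2, Fars2 and Sars2. With Kars, Gars and Qars left out, since their enzymes are not cytosolic alone or have no mitochondrial partner, the cytosolic median was 20.0 TPM, 5.21 times the mitochondrial one in place of 10.2 times.

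**Figure D1:**
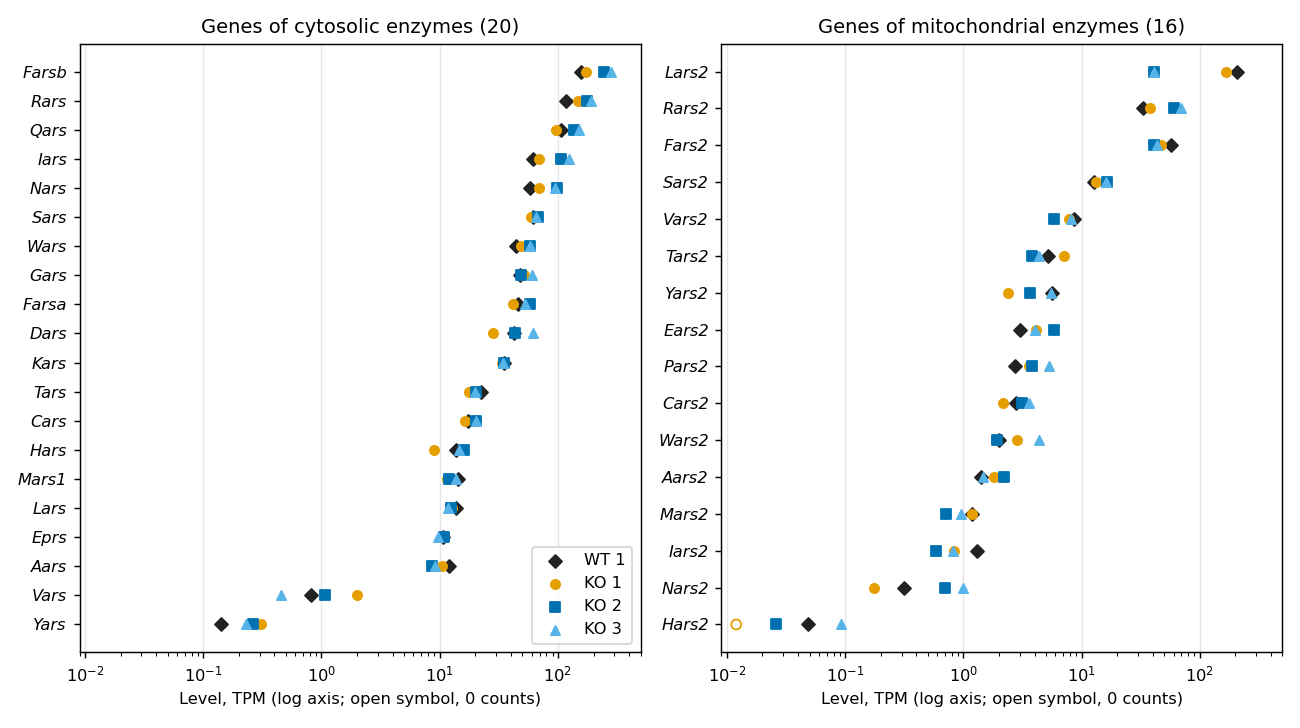
Level of 36 synthetase genes in TPM on a log axis, 1 symbol per library (WT 1, KO 1, KO 2, KO 3), with cytosolic enzymes on the left and mitochondrial enzymes on the right, each sorted by the mean of the 4 libraries. Most cytosolic genes lie above 10 TPM and most mitochondrial genes below it; Lars2 stands apart for the distance between WT 1 and KO 1 on one side and KO 2 and KO 3 on the other.

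By the mean of the 4 libraries, the most abundant synthetase mRNA per length was Farsb, which encodes the beta subunit of cytosolic phenylalanyl-tRNA synthetase (chromosome 1, 78417975 to 78488897, minus strand, mm10). It stood at 156 TPM in WT 1 and at 172, 245 and 283 TPM in KO 1, KO 2 and KO 3. All KO libraries were above WT 1, and KO 1 was the nearest to it. Lars2 was above Farsb in WT 1, at 205 TPM, and below it in the KO libraries, at 165, 41.3 and 41.4 TPM. Rars, for arginine (chromosome 11, 35808381 to 35834506, minus strand), came next by that mean with 118 TPM in WT 1 and 148, 177 and 190 TPM in the KO libraries. Qars, for glutamine (chromosome 9, 108507706 to 108515941, plus strand), was at 106 TPM in WT 1 and at 96.4, 136 and 151 TPM in the KO libraries, which lay on both sides of WT 1. In TPM, Farsb was above Rars and Rars above Qars in each of the 4 libraries, though the ranges over the libraries overlapped between neighbours. This order depended on the division by length. The merged exons of Qars count 6572 bases and its longest protein-coding transcript 2800. In CPM, with no division by length, Qars was above Farsb and Rars in each of the 4 libraries. It was at 281 CPM in WT 1 and at 252, 359 and 379 CPM in the KO libraries.

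Iars, for isoleucine (chromosome 13, 49682100 to 49734267, plus strand), was at 61.6 TPM in WT 1 and at 68.7, 106 and 125 TPM in KO 1, KO 2 and KO 3. Nars, for asparagine, was at 58.2 TPM in WT 1 and at 68.9, 98.4 and 93.6 TPM in the KO libraries. In both genes KO 2 and KO 3 were apart from WT 1 and KO 1. Sars, for serine, differed little between libraries, with 61.7 TPM in WT 1 and 59.4, 68.0 and 64.8 TPM in the KO libraries.

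The lowest cytosolic genes were Vars, for valine, and Yars, for tyrosine. Vars (chromosome 17, 35000987 to 35016322, plus strand) was at 0.82 TPM in WT 1 and at 2.00, 1.07 and 0.45 TPM in the KO libraries, from 26 to 55 counts. Yars (chromosome 4, 129189760 to 129219607, plus strand) was at 0.14 TPM in WT 1 and at 0.31, 0.26 and 0.23 TPM in the KO libraries, from only 8, 9, 14 and 14 counts in WT 1, KO 1, KO 2 and KO 3. With so few counts a change in either gene was not detectable unless it was large. The lowest mitochondrial gene was Hars2, with 2 counts in WT 1 and 0, 1 and 4 in the KO libraries. The 0 in KO 1 allows up to 3 counts, or 0.244 CPM, a limit that covers counting error only, and Hars2 did not pass the filter for testing. Nars2 lay at 0.31 TPM in WT 1 and at 0.18, 0.70 and 0.98 TPM in the KO libraries, from 21, 6, 44 and 70 counts.

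Iars2 and Mars2 were the other mitochondrial genes at the low end. Iars2 (chromosome 1, 185284726 to 185329396, minus strand) was at 1.31 TPM in WT 1 and at 0.83, 0.59 and 0.82 TPM in the KO libraries, all below WT 1. Of its exon length 22.9% overlaps exons of Rab3gap2 on the other strand, which had from 1062 to 2191 counts per library against 36 to 112 for Iars2. Since no source used here states the strand setting of the counting, reads of the 2 genes cannot be told apart there. Exons of Aars also overlap those of Exosc6 on the same strand (14.3% of the Aars exon length), where no strand setting separates reads. Exosc6 had 0 counts in every library used. Since reads of the 2 genes cannot be told apart there, this 0 does not show that Exosc6 RNA was absent or that Aars was unaffected. On the other strand, exons overlap for Farsb with Sgpp2 (9.47%), Fars2 with Nrn1 (8.72%) and Vars2 with Gm20483 (8.52%), where the other gene had fewer counts. The other gene had more counts in every library used for Cars2 with Naxd (5.83%, 773 against 192 counts in WT 1). So it did for Fars2 with Lyrm4 (2.00%, 6110 against 3121 in WT 1) and Mars1 with Ddit3 (1.99%, 2035 against 474). The same held for Ears2 with Ubfd1 (1.73%, 6110 against 150) and Hars2 with Hars (4.56%, 320 against 2). For Nars2 with C230038L03Rik (4.08%) the other gene had more counts in WT 1 (25 against 21) and KO 1 (11 against 6). It had fewer in KO 2 (12 against 44) and KO 3 (32 against 70). Values of all these members are uncertain to that extent. Mars2 was at 1.19 TPM in both WT 1 and KO 1 and at 0.71 and 0.96 TPM in KO 2 and KO 3.

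The 2 subunits of cytosolic phenylalanyl-tRNA synthetase, which work together in 1 enzyme, were measured at different mRNA levels. The alpha subunit gene Farsa was at 45.5 TPM in WT 1 and at 41.5, 57.6 and 53.0 TPM in the KO libraries. The ratio of Farsb to Farsa was 3.42 in WT 1 and reached 4.14, 4.26 and 5.34 in KO 1, KO 2 and KO 3. Taken per length of the longest protein-coding transcript, the ratio was lower, 1.77 in WT 1 and 2.37 ± 0.34 in KO (SD, n = 3), since the merged exons of Farsa count 4538 bases and its longest protein-coding transcript 1826. Farsb was above Farsa in each of the 4 libraries on both lengths.

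The 8 enzymes of the multi-synthetase complex (Dars, Eprs, Iars, Kars, Lars, Mars1, Qars and Rars) all exceeded 10 TPM as a mean of the 4 libraries, but ranged from 10.5 TPM for Eprs to 158 TPM for Rars. Both ends of this range depended on the division by length. The merged exons of Eprs count 18102 bases and its longest protein-coding transcript 4906. In CPM, Eprs was above Lars and Mars1, and Qars above Rars, in each of the 4 libraries. In WT 1, Eprs was at 77.7 CPM, Lars at 29.6 CPM and Mars1 at 19.8 CPM. The scaffolds of the complex lay in the same range of TPM. Eef1e1 was at 116 TPM in WT 1 and at 124, 181 and 136 TPM in the KO libraries, Aimp2 at 61.7, 49.5, 88.8 and 76.2 TPM in WT 1 and KO 1 to KO 3, and Aimp1 at 25.4, 25.7, 21.7 and 22.6 TPM. None of the 3 scaffold genes passed the test, with log2 fold changes of 0.32, 0.19 and -0.15 and adjusted p of 0.744, 0.878 and 0.881 in that order.

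For the same amino acid, the cytosolic gene was above its mitochondrial partner in every library in 14 of 18 pairings, with the phenylalanine subunits and both activities of Eprs counted separately. The distance was greatest for histidine, asparagine and isoleucine. Nars exceeded Nars2 by 185-fold in WT 1 and by 392, 140 and 95.1-fold in KO 1, KO 2 and KO 3, while Iars exceeded Iars2 by 47.0-fold in WT 1 and by 83.0, 180 and 153-fold. For serine the ratio was similar in all libraries, 4.89 in WT 1 and 4.46, 4.17 and 4.03 in the KO libraries.

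In 3 pairings the mitochondrial gene was the higher one in every library. Yars2 exceeded Yars by 7.76 to 39.9-fold, Vars2 exceeded Vars by 3.94 to 18.1-fold and Lars2 exceeded Lars by 3.28 to 14.9-fold. In the tyrosine and valine pairings the cytosolic member was the one that stood at a low level, while in the leucine pairing the mitochondrial member was the one that stood high. The order of Farsa and Fars2 changed: Fars2, which works as a single chain, was higher in WT 1 and KO 1 and lower in KO 2 and KO 3.

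**Figure D2:**
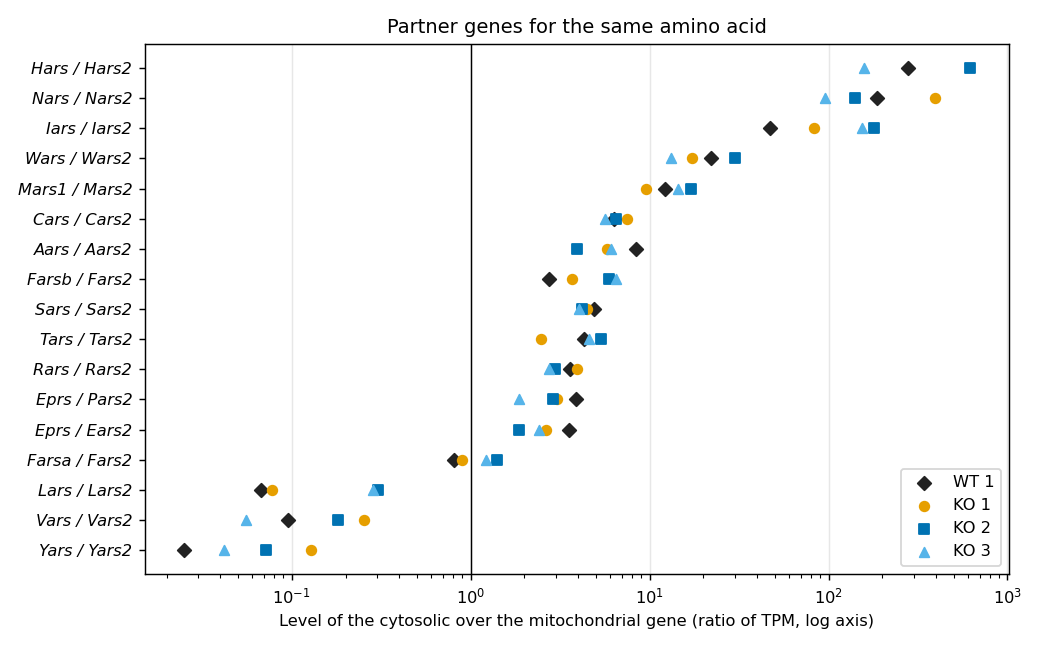
Ratio of the TPM of the cytosolic gene to that of its mitochondrial partner, on a log axis, for 17 of the pairings, 1 symbol per library; the vertical line marks equal levels, and the point of KO 1 for histidine is not drawn because Hars2 had 0 counts. Yars, Vars and Lars lie left of the line in every library, and the ratio for asparagine lies between 95.1 and 392.

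KO 1 to KO 3 were compared with WT 1 in an edgeR quasi-likelihood test, in which 344 of 17799 genes (1.93%) passed the threshold of 0.05 on the adjusted p, 235 higher (1.32%) and 109 lower (0.612%). Of the 36 synthetase genes tested, 0 passed. The lowest unadjusted p among them was 0.0658, for Lars2, so that 0 of the 36 had an unadjusted p under 0.05, and 0 passed in DESeq2, where 672 genes (3.78%) did, or in limma-voom, where 231 (1.30%) did. Nor did any member pass with DESeq2 size factors, library size alone, upper-quartile factors, robust=FALSE or a mean of at least 5 CPM, under which 2.13, 1.62, 1.92, 1.98 and 1.26% of genes passed. A p that misses the threshold does not show that levels were alike, and the fit takes the spread of the single WT library from the KO libraries. Nothing in the labels says whether samples came from separate females, so that p-values measure the spread between these samples, which may be technical.

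**Figure D3:**
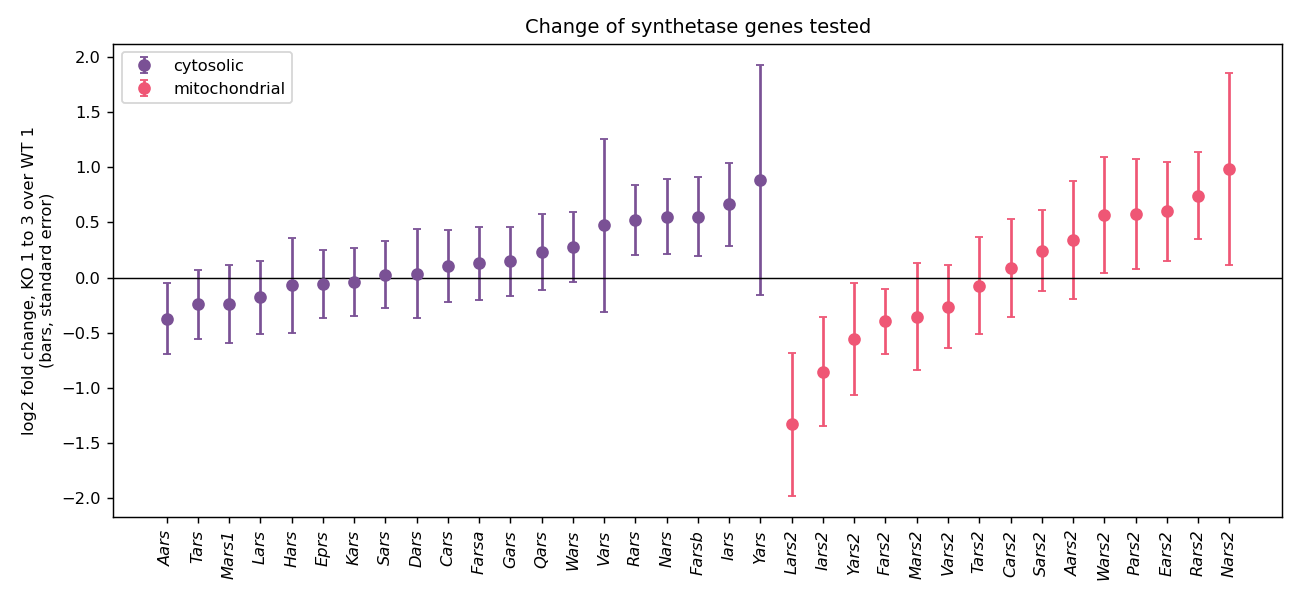
Log2 fold change of 35 of the synthetase genes tested, KO 1 to KO 3 over WT 1, with standard error bars from the edgeR fit, sorted within cytosolic and mitochondrial enzymes. Lars2 has the lowest value at -1.33 and Nars2 the highest at 0.98, and none passed the threshold.

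Among cytosolic genes 13 of 20 had log2 fold changes above 0 (median 0.12), and among mitochondrial genes 9 of 16 did (median 0.16). Over all genes tested the median was 0.02 and 51.3% were above 0. All KO libraries lay on one side of WT 1 in 21 of the 36 members (58.3%), above it in 11 and below it in 10, against 58.3% of all genes tested, 29.1% above and 29.2% below. The members thus did not depart from the background in this count. The complex enzymes had 4 of 8 above 0, the 18 tested class I enzymes a median of 0.17 and the 17 tested class II enzymes a median of 0.13. Cytosolic genes listed as ATF4 targets had a median of 0.06 (7 of 12 above 0) and those not listed 0.18 (6 of 8 above 0).

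KO 1 was nearer to WT 1 than the other KO libraries in many members. With KO 2 and KO 3 on one side of WT 1, KO 1 was nearer to WT 1 than both, or beyond it, in 24 of the 36 members (66.7%) and in 54.0% of all genes tested. Without KO 1, 4923 of 17498 genes (28.1%) passed, and 6 of the 36 members (16.7%) did, a smaller share than the background. That fit knows no other spread than the one between KO 2 and KO 3. Of these members 5 were higher in KO, against 15.4% of all genes, and 1 was lower, against 12.7%. Those above WT 1 were Rars2, Iars, Farsb, Nars and Rars, with log2 fold changes of 0.96, 0.87, 0.73, 0.69 and 0.61, and the one below was Lars2, at -2.34. Their adjusted p ran from 3.00e-40 for Lars2 to 0.00519 for Rars. With KO 2 or KO 3 left out instead, 2.43% and 2.89% of genes passed and 0 members did. With WT 2 in the place of WT 1, 81.4% of genes and 31 members passed; with both WT libraries 0 of 16738 genes did.

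Rars2 (chromosome 4, 34614957 to 34660167, plus strand), for mitochondrial arginine, was at 36.5 CPM in WT 1 and at 41.7, 67.1 and 73.9 CPM in KO 1, KO 2 and KO 3. Its log2 fold change with all 4 libraries was 0.74 (SE 0.40, adjusted p = 0.464). Iars was at 130 CPM in WT 1 and at 144, 224 and 252 CPM in the KO libraries, a log2 difference of 0.66 (SE 0.38, adjusted p = 0.500). Both were above WT 1 in 3 of 3 KO libraries, with KO 1 close to WT 1. A processed pseudogene, Gm4849, matches 1656 bases of the Iars transcript at 96.0% identity, so counts of Iars could in part be split with it; it held from 0 to 36 counts per library.

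The next 3 members were of the cytosol. Farsb was at 164 CPM in WT 1 and at 179, 258 and 283 CPM in the KO libraries, a log2 difference of 0.55 (SE 0.36, adjusted p = 0.557). Nars was at 102 CPM in WT 1 and at 119, 172 and 156 CPM, a log2 difference of 0.55 (SE 0.34, adjusted p = 0.529). Rars was at 152 CPM in WT 1 and at 190, 230 and 234 CPM, a log2 difference of 0.52 (SE 0.32, adjusted p = 0.528). In each of them all KO libraries were above WT 1, and KO 1 was the nearest.

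The mitochondrial genes Nars2 and Iars2, both with few counts, had log2 fold changes of larger size. Nars2 was at 0.88 CPM in WT 1 and at 0.49, 1.97 and 2.62 CPM in the KO libraries, on both sides of WT 1, a log2 difference of 0.98 (SE 0.87, adjusted p = 0.690). Iars2 was at 4.68 CPM in WT 1 and at 2.92, 2.10 and 2.77 CPM, all below WT 1, a log2 difference of -0.85 (SE 0.49, adjusted p = 0.505). Of the cytosolic genes Yars had the largest, 0.88 (SE 1.04, adjusted p = 0.769), with 0.33 CPM in WT 1 and 0.73, 0.63 and 0.52 CPM in the KO libraries. Fars2, on chromosome 13, was at 130 CPM in WT 1 and at 106, 95.2 and 95.8 CPM, below WT 1 in 3 of 3 KO libraries, a log2 difference of -0.40 (SE 0.30, adjusted p = 0.617).

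Yars2 is the member in the part of chromosome 16 where WT 2 does follow the gene models, so both WT libraries could be used. Within the first 90 megabases of that chromosome, Yars2 (16302965 to 16309640, plus strand) was at 303 and 378 CPM of the region in WT 1 and WT 2 and at 127, 196 and 278 CPM of the region in KO 1, KO 2 and KO 3. Both WT values were above the 3 KO values, the nearest being 303 in WT 1 against 278 in KO 3. How many genes of the region have this order was not counted. The log2 fold change was -0.76 (SE 0.43, adjusted p = 0.437 over 437 genes, of which 7, or 1.60%, passed). With WT 1 alone and all genes it was -0.56 (SE 0.51, adjusted p = 0.696).

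Lars2, for mitochondrial leucine (chromosome 9, 123366927 to 123462666, plus strand), had the widest spread of the members with many counts. It stood at 912 CPM in WT 1 and at 728, 184 and 175 CPM in KO 1, KO 2 and KO 3, from 21814, 8971, 4119 and 4685 counts. KO 1 was close to WT 1, while KO 2 and KO 3 were together 5.08-fold below WT 1. The log2 fold change with all 4 libraries was -1.33 (SE 0.65, adjusted p = 0.413), and with no filter on low counts it passed, at -1.35 (adjusted p = 0.0254, with 3.07% of 28291 genes passing). Its cytosolic partner Lars showed no such division, at 29.6 CPM in WT 1 and 27.3, 27.1 and 24.1 CPM in the KO libraries.

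Like Lars2, 3 ribosomal RNA genes were higher in WT 1 and KO 1 than in KO 2 and KO 3. This division was not particular to them. The 37 mitochondrially encoded genes, mt-Rnr1 and mt-Rnr2 included, took 0.344% of counts in WT 1 and 0.394, 0.214 and 0.235% in the KO libraries. With KO 2 and KO 3 on one side of WT 1, KO 1 was nearer to it than both, or beyond, in 54.0% of all genes tested. CT010467.1, annotated as a ribosomal RNA gene, took 2.47% of counts in WT 1 and 1.49, 0.554 and 0.565% in the KO libraries. The mitochondrial large ribosomal RNA, mt-Rnr2, was at 1312 CPM in WT 1 and at 1164, 580 and 634 CPM in the KO libraries, and the small one, mt-Rnr1, at 207, 236 and 84.0 CPM in WT 1, KO 1 and KO 3, and lowest in KO 2. Lars2 counts were 3.75% of the CT010467.1 counts in WT 1 and 5.01, 3.18 and 3.10% in the KO libraries, a narrower range than the 5.20-fold range of Lars2 itself. Against mt-Rnr2 they did not keep 1 ratio, at 69.5% of its counts in WT 1 and 62.6, 31.7 and 27.6% in the KO libraries. None of the 3 ribosomal RNA genes passed the edgeR test, with adjusted p of 0.195 for CT010467.1, 0.480 for mt-Rnr2 and 0.667 for mt-Rnr1. A blastn search of the annotated transcripts of these 3 ribosomal RNA genes against those of the members found 0 matches at an E-value of 1e-05 with a word size of 11. Shorter or weaker matches, and other ribosomal RNA sequences, are not covered. The part of ribosomal RNA carry-over in the Lars2 values was not tested.

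Lars2 was also a large part of the mitochondrial sum. Summed over members, cytosolic genes reached 881 TPM in WT 1 and 908, 1176 and 1274 TPM in the KO libraries, and mitochondrial genes 342 TPM in WT 1 and 299, 193 and 213 TPM. The ratio of the cytosolic to the mitochondrial sum was 2.57 in WT 1 and reached 3.04, 6.08 and 5.98 in KO 1, KO 2 and KO 3, a KO mean of 5.04 ± 1.73 (SD, n = 3). The size of the ratio depended on the length used: in WT 1 it was 1.35 in CPM, with no division by length, and 1.67 per length of the longest protein-coding transcript, and the KO means were 3.62 and 3.77. Lars2 made up 59.8% of the mitochondrial sum in WT 1 and 55.4, 21.4 and 19.4% in the KO libraries. With Lars2 left out, a choice made after its values were seen, the ratio was 6.40 in WT 1 and 6.81, 7.74 and 7.43 in the KO libraries. All KO libraries were above WT 1 on both counts, and WT 1 as a single library gives no spread of its own.

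**Figure D4:**
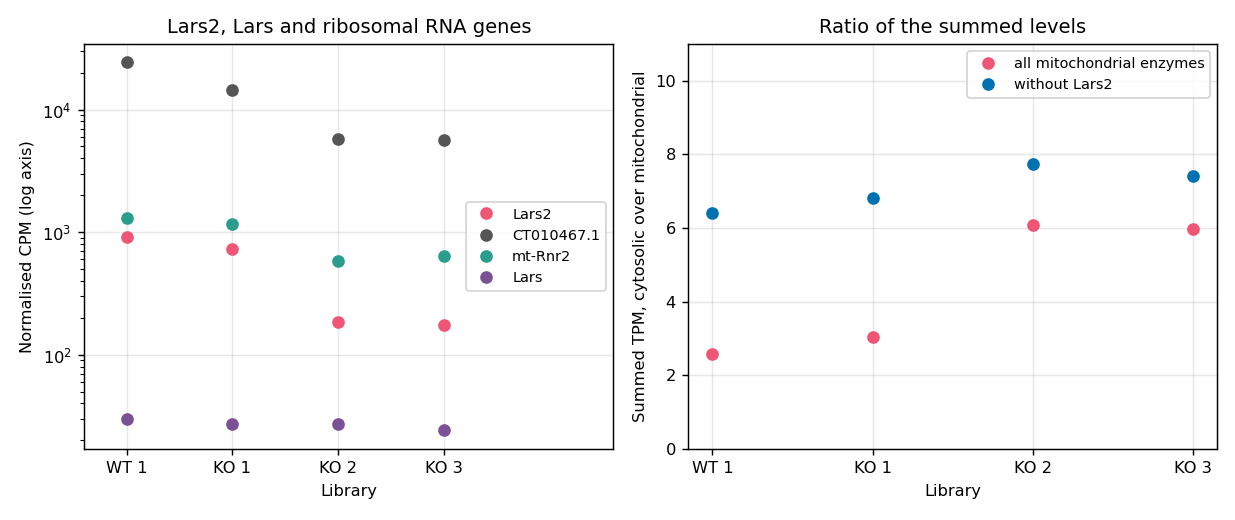
Left, normalised CPM on a log axis of Lars2, its cytosolic partner Lars and the ribosomal RNA genes CT010467.1 and mt-Rnr2 in each library; right, ratio of summed cytosolic to summed mitochondrial synthetase TPM in each library, with all mitochondrial enzymes and without Lars2. Lars2 is higher in WT 1 and KO 1 than in KO 2 and KO 3, as CT010467.1 and mt-Rnr2 are, and the ratio runs from 2.57 to 6.08 with Lars2 and from 6.40 to 7.74 without it.

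The genes around tRNA charging were described from lists drawn up for this purpose. RNA polymerase III, which transcribes tRNA genes, and its factors had 22 genes tested, of which 0 passed, against 1.93% of all genes, and 3 had log2 fold changes above 0, against 51.3% of all genes. The other 19 were below 0, and the median was -0.28. The nearest to the threshold were Polr3e, a polymerase subunit, at 22.7 CPM in WT 1 and 9.34, 7.28 and 9.99 CPM in the KO libraries (log2 fold change -1.35, SE 0.37, adjusted p = 0.121), and Bdp1, a part of the initiation factor TFIIIB, at 35.6 CPM in WT 1 and 21.7, 15.3 and 16.2 CPM (-1.01, SE 0.35, adjusted p = 0.238). In both genes every KO library, KO 1 included, was below WT 1.

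Of 26 tRNA maturation and export genes tested, 1 fell and 0 rose, against 0.612% and 1.32% of all genes tested. Tsen15, a subunit of the endonuclease that removes introns from tRNAs, was at 13.5 CPM in WT 1 and at 2.03, 2.15 and 4.11 CPM in the KO libraries, a log2 difference of -2.27 (SE 0.48, adjusted p = 0.0438). Pop4, a subunit of RNase P, which trims the 5′ end of tRNAs, was at 53.7 CPM in WT 1 and at 117, 163 and 132 CPM (1.35, SE 0.35, adjusted p = 0.0998). The list as a whole had a median of -0.03.

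Of 9 genes of amino acid and stress sensing through eIF2 alpha, 1 fell, against 0.612% of all genes tested. Eif2ak3, which encodes PERK, the kinase that signals unfolded protein in the endoplasmic reticulum, was at 47.4 CPM in WT 1 and at 9.91, 9.16 and 10.1 CPM in the KO libraries, a log2 difference of -2.29 (SE 0.32, adjusted p = 0.00583). The KO libraries lay close together and far from WT 1. ATF4 targets outside the synthetases had 24 genes tested, of which 0 passed, against 1.93% of all genes tested. Their median was 0.13, and 13 were above 0, against 51.3% of all genes. The nearest were Stc2, a secreted glycoprotein, at 3.72 CPM in WT 1 and 20.8, 11.5 and 11.9 CPM in the KO libraries (1.98, SE 0.52, adjusted p = 0.108), and Trib3, a pseudokinase, at 0.42 CPM in WT 1 and 1.22, 1.88 and 2.58 CPM (2.18, SE 0.78, adjusted p = 0.255).

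Factors that act on charged tRNA had no gene that passed, against 1.93% of all genes tested. The 4 tested genes of the cytosolic elongation factors had a median log2 fold change of -0.04, the 2 mitochondrial ones, Tufm and Tsfm, -0.08, and the 6 genes of selenocysteine charging and insertion -0.07. The amidotransferase that makes mitochondrial glutaminyl-tRNA, with the methionyl-tRNA formyltransferase Mtfmt, had a median of -0.14 over 4 genes. The lowest p in these lists belonged to Eef1b2 (-0.47, adjusted p = 0.606), Tufm (-0.27, adjusted p = 0.781), Eefsec (0.38, adjusted p = 0.717) and Qrsl1 (-0.69, adjusted p = 0.700). Among related enzymes, Dtd1, which removes D-amino acids from tRNA, was at 5.02 CPM in WT 1 and at 6.01, 10.9 and 10.1 CPM in the KO libraries (0.85, SE 0.49, adjusted p = 0.505).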

How the data were processed

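Poly(A) RNA of full-grown oocytes was made into libraries by Smart-seq2, per the labels' protocols. Oligo(dT) priming ties capture of an mRNA to its tail, which the deleted enzyme acts on. The submitters' processing notes list Trim Galore 0.6.7, STAR 2.7.10a, featureCounts 2.0.2, DESeq2 and mm10. No annotation release or strand setting is stated. The authors deposited raw counts for each gene, beside exon coordinates and exon length, per the file headers. Merged exon length, the other deposited measure, was used to compute TPM here. Identifiers came from GENCODE M21 (36 members by symbol, Mars1 by position).

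Genes were filtered with filterByExpr (minimum count 10), scaled by TMM and tested by the quasi-likelihood method of edgeR 4.0.16 in R 4.3.3, robust=TRUE, with p-values adjusted by Benjamini-Hochberg across every gene tested. CPM values use the TMM factors, and 1 count was worth 0.0374 to 0.0812 CPM. DESeq2 1.42.0, limma 3.58.1 (voom), other scalings, filters and thresholds, and the libraries (WT 2 added, a replicate block, each one left out) were alternatives. The steps were tested on simulated data. Members and lists were chosen with earlier results of these data known. Values in every library are given for members that pass in a 4-library setting, the 5 lowest p, the 5 largest log2 fold changes, and the 5 highest and lowest levels; outside the members, for Pan2 and those of each list that pass or have the 2 lowest p where they bear on the text. Some values of the members are not reported here. Transcripts were compared with BLAST 2.17.0.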

Additional observations from a re-analysis of the deposited data

How the results depend on the processing

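None of the 36 synthetase genes passed under DESeq2 size factors, DESeq2, library size alone, limma-voom, a mean of at least 5 CPM, robust=FALSE, upper-quartile factors or thresholds of 0.01 and 0.1, and 1, Lars2, passed with no filter on low counts. Over these settings with all 4 libraries the adjusted p of Lars2 ran from 0.0254 to 0.795. Genes passing of all tested were 672 in DESeq2, 126 at a mean of at least 5 CPM, 868 with no filter, 131 at 0.01 and 545 at 0.1, against 344. At a mean of at least 5 CPM, which left 28 members, the mitochondrial median log2 fold change was -0.025, or 0.050 without Lars2. Dars was at -0.0077 with library size alone, -0.012 in limma-voom and -0.0017 at a mean of at least 5 CPM, and Sars at -0.013 with library size alone and at -0.0071 at a mean of at least 5 CPM. With Lars2 left out the cytosolic to mitochondrial ratio was 6.40 in WT 1 and 7.32 in KO.

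With one library left out at a time, from 425 to 15277 genes and from 0 to 31 members passed. The high ends came from leaving out WT 1, which sets WT 2 in its place. The cytosolic median ran from 0.032 to 6.51, the mitochondrial from 0.12 to 3.67 and that without Lars2 from 0.15 to 3.52. Log2 fold changes that changed sign ran from -0.46 to 3.02 for Aars, -0.24 to 6.85 for Dars, -0.11 to 5.25 for Eprs, -0.26 to 0.49 for Hars, -0.081 to 5.53 for Kars, -0.21 to 4.51 for Lars, -0.30 to 11.14 for Mars1, -0.040 to 6.18 for Sars, -0.30 to 12.56 for Tars, -0.12 to 2.94 for Vars, -2.06 to 1.00 for Yars, -0.87 to 0.26 for Cars2, -0.44 to 7.23 for Fars2, -0.93 to 8.45 for Iars2, -2.34 to 5.53 for Lars2, -0.54 to 3.67 for Mars2, -2.54 to 0.080 for Tars2 and -0.33 to 11.05 for Vars2.

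WT 2 stands apart from the gene models, and the replicate numbers name samples without a stated pairing. With WT 2 added and no replicate block 0 of 16738 genes passed in edgeR, the cytosolic median was 1.02, the mitochondrial 0.55 and that without Lars2 0.60, while all genes had a median of 0.68. Values of the other sign than with WT 1 alone were 0.45 for Aars, 0.89 for Eprs, 0.92 for Kars, 0.74 for Lars, 0.75 for Mars1, 0.76 for Tars, -1.53 for Yars, -0.77 for Cars2, 0.60 for Fars2, 0.095 for Iars2, 0.50 for Mars2 and 0.73 for Vars2. With the replicate block 0 genes passed, the medians were 2.86, 1.69 and 1.63, with 1.97 for all genes, and the values were 1.14 for Aars, 2.43 for Eprs, 2.52 for Kars, 1.97 for Lars, 3.45 for Mars1, 4.25 for Tars, -0.72 for Yars, -0.78 for Cars2, 3.16 for Fars2, 1.75 for Iars2, 1.89 for Lars2, 1.33 for Mars2 and 3.38 for Vars2. The cause was not tested.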
